A study of Mus musculus with 7 samples.

Results

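The genes that copy DNA in S phase were examined in CD11b+ migratory dendritic cells, sorted from the lymph node that drains the lung. The list holds 42 named genes, each taken by its symbol from the per-library gene tables, out of 48440 genes in those tables. All 42 were found, and all 42 had enough reads to be tested. Infant libraries (4, from mice of 2 to 3 weeks) were set against adult libraries (3, from mice of 7 weeks). Every mouse was of the B6 strain and had received house dust mite allergen with LPS through the nose 24 hours earlier, so no library shows the cells without allergen. The sorted cells carried CD11c, CD11b and much MHC class II, and cells with B220, CD64 or CD103 were left out. The study compared the 2 ages for genes and signalling pathways that differ. The labels give no number of animals per library, and the p-values therefore measure the spread between these libraries, which may be technical.

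DNA replication starts when the origin recognition complex, Cdc6 and Cdt1 load the ring-shaped MCM helicase onto DNA. Kinases, Cdc45 and the GINS complex then switch the helicase on, and polymerases, the sliding clamp PCNA and its RFC loader follow. E2F transcription factors drive many of these genes as cells enter S phase, and cyclin E with CDK2 helps start it. Dendritic cells divide mostly as precursors, and mature migratory cells are regarded as largely out of the cell cycle. In bulk RNA, fewer cycling cells and less RNA per cycling cell cannot be told apart.

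Most replication genes stood slightly higher in infants, and none passed the test across all genes. The log2 fold change (infant over adult) was above 0 for 38 of the 42 and below 0 for 4. It was above 0 for 50.2% of all tested genes. Its median over the 42 was 0.25, while the median over all 12261 tested genes was 0.0016. In edgeR's quasi-likelihood fit, with p-values adjusted over all tested genes after Benjamini and Hochberg, 0 of the 42 passed 0.05, where 2 of all tested genes (0.0163%) did. The smallest adjusted p among the 42 was 0.197, for Rrm2. At an unadjusted p under 0.05, called a low p from here on, there were 13 members higher in infants and 0 lower, which is 31.0% of the list, while 6.53% of all tested genes were higher and 6.73% lower at that level. Without adult 3 the number was 8, and the share of all genes in that fit is not given. DESeq2 called 2 members, Rrm2 and Orc6, both higher in infants, where it called 1.57% of all genes in either direction and 0.596% as higher, and limma-voom called 0 members.

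The libraries could be ordered by these genes. The summed level of the 42 genes was 1807, 2267, 1821 and 2006 CPM in infants 1 to 4, against 1695, 1767 and 1529 CPM in adults 1 to 3. CPM are read counts scaled to a common library size with edgeR's TMM factors. Every infant library thus lay above every adult library for the sum, with infants 1 and 3 the closest to adult 2. That order rested on the scaling, with TMM factors of 0.974 for infant 3 and 1.03 for adult 2. Without these factors infant 3 lay below adult 2 for the sum. Infant 2 was the highest of the 7 libraries for 18 members and infant 4 for 12, and adult 3 was the lowest for 21. For 11 members (26.2%) every infant library lay above every adult library, which held for 7.97% of all tested genes. The reverse order, all adults above all infants, was found for 0 members and for 7.58% of tested genes.

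**Figure D1:**
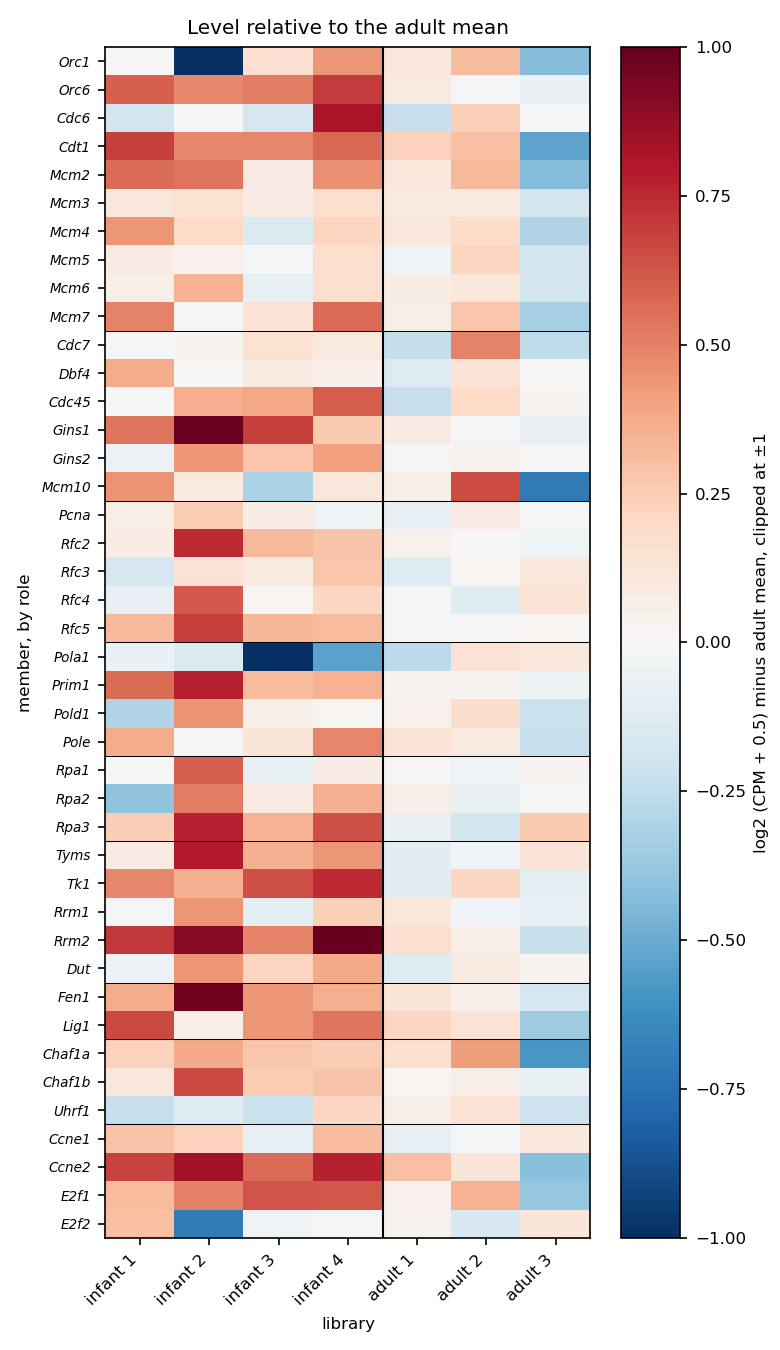
Level of each of the 42 genes in each library, as log2 (CPM + 0.5) minus the adult mean of that gene, with colours ending at ±1. Columns are infants 1 to 4 and adults 1 to 3, and rows are grouped by role. The infant columns hold mostly higher values, infant 2 is highest for 18 genes, and the adult 3 column holds the lowest value for 21.

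Other features of the libraries moved with age or stood apart. The immediate-early and heat-shock genes, which respond within minutes to stimulation and handling, summed to 2259 to 3830 CPM in infants and 6944 to 7519 CPM in adults, with no overlap. Their part in the replication result was not tested. Infant 2 stood apart on the first principal component of all genes, at 65.7, while infants 1, 3 and 4 lay between -14.2 and 8.59 and the adults between -22.3 and -20.9. Infant 2 also had the most Malat1, a nuclear RNA, at 13539 CPM, with infants 1, 3 and 4 at 3108 to 3728 CPM and the adults at 3058 to 4411 CPM. Neat1, another nuclear RNA, was at 83.1 CPM in infant 2 and the mitochondrial mt-Nd1 at 194 CPM, each the lowest of the 7 libraries. The mitochondrial mt-Co1, mt-Cytb and mt-Atp6 were lowest in adult 1 (1270, 283 and 487 CPM), not infant 2 (1791, 323 and 502 CPM). Library totals were 18022302 to 20377361 exon reads in infants and 20064331 to 22316484 in adults. The 10 dendritic markers summed to 43878 to 66853 CPM in infants and 41567 to 50449 CPM in adults, and included Cd74 (20445 to 34513 CPM in infants and 18525 to 23971 CPM in adults) and Ccr7 (4599 to 5218 CPM in infants and 5518 to 6392 CPM in adults). Infant 2 was the lowest library for Flt3, Itgax, Fscn1, Irf4 and Sirpa, and the highest for Cd74 and H2-Ab1. For Zbtb46, H2-Aa and Ccr7 it lay between. Of the 10, 2 had a low p, Flt3 (147 to 355 CPM in infants and 405 to 441 CPM in adults) and Zbtb46 (163.0 to 201 CPM in infants and 217 to 242 CPM in adults), both lower in infants without overlap. Of all tested genes 13.3% had a low p in either direction. Itgae, which encodes CD103, was at 0.586 to 1.26 CPM in infants and 1.39 to 3.24 CPM in adults, without overlap. It was the 1 of the 7 markers of type 1 dendritic cells with a low p.

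The summed markers of other cells in the node overlapped between the ages, apart from the erythroid list, which was under 1 CPM but without overlap. The 10 B cell markers summed to 326 to 586 CPM in infants, with infant 2 the highest, and 283 to 330 CPM in adults. Most of that was Ighm, while Pax5 had 0 reads in infants and at most 0.0451 CPM in adults. Of the B cell list, 2 had a low p, as did 13.3% of all tested genes in either direction. They were Cd79b, at 23.3 to 42.6 CPM in infants and 20.8 to 23.7 CPM in adults, and Cd22, at 0.947 to 3.48 CPM in infants and 3.52 to 4.22 CPM in adults. The 10 T cell markers summed to 128 to 264 CPM in infants and 159 to 198 CPM in adults, nearly all of it Tcf7, with Cd3e at 0.160 to 1.09 CPM in infants and 0.0902 to 0.404 CPM in adults. The 6 erythroid markers summed to 0.263 to 0.798 CPM in infants and 0.0449 to 0.196 CPM in adults. The 9 macrophage markers overlapped in their sum, at 547 to 1510 CPM in infants and 587 to 1160 CPM in adults, but 3 of them had a low p, in both directions. Adgre1 was at 65.9 to 79.5 CPM in infants and 48.9 to 59.3 CPM in adults, and Marco at 2.32 to 7.68 CPM in infants and 8.34 to 27.1 CPM in adults, both without overlap. Mertk was at 2.89 to 4.85 CPM in infants and 3.83 to 10.9 CPM in adults. The 8 monocyte markers summed to 2888 to 6075 CPM in infants and 2703 to 4403 CPM in adults. The 7 NK cell markers (335 to 399 CPM in infants, 296 to 401 CPM in adults), the 7 markers of type 1 dendritic cells (1100 to 1392 and 856 to 1170 CPM) and the 6 of plasmacytoid dendritic cells (151 to 185 and 173 to 190 CPM) overlapped too. Nearly all of the NK sum was Klrk1, at 328 to 395 CPM in infants and 293 to 382 CPM in adults. Irf8 and Batf3 made up most of the type 1 sum, and Bst2 and Tcf4 most of the plasmacytoid sum. The 8 neutrophil markers summed to 18.4 to 41.7 CPM in infants and 18.3 to 25.4 CPM in adults, with Ly6g at 0, while the 7 stromal and endothelial markers (3.53 to 5.73 and 4.27 to 5.68 CPM) and the 6 epithelial markers (3.42 to 8.62 and 5.30 to 6.85 CPM, with Scgb1a1 at 0) stayed under 10 CPM. The part of other cells in the replication result was not tested.

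Before the members are taken by role, the DNA upstream of their starts can be described. RefSeq start sites on GRCm38.p6, which shares its coordinates with the mm10 build of the tables, gave a window of 250 bases before the start for 36 of the 42 genes. E2F-type letters (TTTGGCGC, TTTCCCGC, TTTCGCGC or TTTGCCGC, on either strand) were in 7 of the 36 windows (19.4%) and in 2.24% of the windows of 18832 genes. The 7 genes were Orc1, Cdc6, Mcm5, Mcm6, Mcm7, Rfc3 and Pola1. The letters CCAAT, bound by NF-Y, were in 21 of 36 windows (58.3%) against 35.4% of all windows, and TTTGAA, the core of the cell cycle homology region found in many mitotic genes, in 3 of 36 (8.33%) against 15.01%. Of the 10 windows of genes with an unadjusted p under 0.05, 0 held the E2F-type letters and 4 held CCAAT. The windows of Cdc6, Mcm7, Dut and E2f1, the last of them a gene of low p, lay wholly inside the deposited gene spans. Their RefSeq starts were 350, 539, 325 and 466 bases from the deposited 5′ ends, so the counts depend on the start used. A match here is a description of the letters and not of binding. The windows below are shown because Mcm5 and Mcm6 hold overlapping E2F-type letters together with CCAAT, while Rrm2, the member with the smallest p, holds CCAAT alone. Capitals mark the E2F-type letters and CCAAT on either strand, 5′ to 3′ along the gene, and the window of Rrm2 ends where its deposited gene span starts.
Mcm5, chr8:75109259-75109508, plus strand: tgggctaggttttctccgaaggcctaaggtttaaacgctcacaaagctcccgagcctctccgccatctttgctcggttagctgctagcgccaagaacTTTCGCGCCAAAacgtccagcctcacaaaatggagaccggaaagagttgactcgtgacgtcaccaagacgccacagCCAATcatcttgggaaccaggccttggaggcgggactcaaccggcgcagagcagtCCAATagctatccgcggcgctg
Mcm6, chr1:128359706-128359955, minus strand: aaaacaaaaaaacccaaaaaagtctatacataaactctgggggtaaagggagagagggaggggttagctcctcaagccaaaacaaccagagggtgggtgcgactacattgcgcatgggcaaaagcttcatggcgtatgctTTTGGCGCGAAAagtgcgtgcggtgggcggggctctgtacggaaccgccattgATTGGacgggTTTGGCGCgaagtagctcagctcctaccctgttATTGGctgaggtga
Rrm2, chr12:24708004-24708240, plus strand: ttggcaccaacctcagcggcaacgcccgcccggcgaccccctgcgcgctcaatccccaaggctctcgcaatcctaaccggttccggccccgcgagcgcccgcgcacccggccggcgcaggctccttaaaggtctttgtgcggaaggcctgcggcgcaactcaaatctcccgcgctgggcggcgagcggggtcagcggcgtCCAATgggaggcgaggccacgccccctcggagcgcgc

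The genes differed widely in level. Per length, as the authors' RPKM, which divide reads by exon length and library size, 18 of the 42 averaged 10 or more over the 7 libraries and 5 averaged under 1. Rpa3, the small subunit of the single-strand binding protein RPA, had the highest mean RPKM, at 44.9 ± 6.64 in infants (SD, n = 4) and 32.2 ± 5.50 in adults (SD, n = 3). Fen1, the flap nuclease, followed at 40.6 ± 7.27 RPKM in infants (SD, n = 4) and 28.3 ± 2.81 RPKM in adults (SD, n = 3). Pcna, the sliding clamp, had 35.5 ± 2.06 RPKM in infants and 34.0 ± 2.27 RPKM in adults. In infants Rpa3 lay above Pcna in every library, while Fen1 overlapped with both. In adults Fen1 lay below Pcna in every library, and Rpa3 overlapped with both. At the low end stood Pola1 and Orc1, the catalytic subunit of polymerase alpha and the largest subunit of the origin recognition complex, with RPKM of 0.263 ± 0.108 and 0.306 ± 0.180 in infants and 0.385 ± 0.0682 and 0.328 ± 0.117 in adults. E2f2, Mcm10 and Pole averaged 0.473, 0.479 and 0.797 RPKM over all libraries. The median member had 24.7 CPM, and the median tested gene 19.2 CPM.

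Nucleotide supply was the role with the member of smallest p. Its 5 genes make or salvage the building blocks of DNA, and 3 of them had an unadjusted p under 0.05. Rrm2, the regulated small subunit of ribonucleotide reductase, had 35.7, 41.1, 30.7 and 46.1 CPM in infants 1 to 4, against 24.3, 22.5 and 18.5 CPM in adults 1 to 3. The groups did not overlap, and infant 4 was the highest. Rrm2 (chromosome 12, 24708241 to 24714146 in mm10, plus strand) averaged 38.4 ± 6.66 CPM in infants (SD, n = 4) and 21.8 ± 3.00 CPM in adults (SD, n = 3). The log2 fold change was 0.82 (SE 0.18, edgeR adjusted p = 0.197), a ratio of 1.76, and DESeq2 gave adjusted p = 0.00557. Rrm1, the large subunit of the same enzyme, had a log2 fold change of 0.16 (SE 0.15).

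Thymidine enzymes stood beside it. Tk1 (chromosome 11, 117815526 to 117826092, minus strand), the thymidine kinase that salvages thymidine in S phase, had 12.1, 11.04, 13.6 and 14.6 CPM in infants 1 to 4, against 7.90, 9.92 and 7.94 CPM in adults 1 to 3. All infant libraries lay above all adult libraries, with a log2 fold change of 0.58 (SE 0.19, edgeR adjusted p = 0.304). Tyms, thymidylate synthase, had 64.9, 106.5, 78.2 and 83.1 CPM in infants 1 to 4, against 56.9, 59.9 and 67.0 CPM in adults 1 to 3. Here infant 1 lay below adult 3, and the log2 fold change of 0.44 (SE 0.17, edgeR adjusted p = 0.331) had an unadjusted p over 0.05 without adult 1, adult 2 or infant 4. Dut, which removes dUTP, was at 0.26 (SE 0.17) on the log2 scale. Summed, the 5 nucleotide genes stood at 194 to 272 CPM in infants and 173 to 176 CPM in adults, so the adult libraries were close to each other and the infants spread.

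Of the 10 licensing genes, 9 had a log2 fold change above 0 and 2, both from the loading step, had a low p. Orc6 (chromosome 8, 85299632 to 85308278, plus strand), the smallest subunit of the origin recognition complex, had 23.3, 21.4, 21.9 and 25.0 CPM in infants 1 to 4, against 16.2, 15.02 and 14.5 CPM in adults 1 to 3. The groups lay well apart, at 22.9 ± 1.62 CPM in infants (SD, n = 4) and 15.2 ± 0.872 CPM in adults (SD, n = 3). Its log2 fold change was 0.59 (SE 0.14, edgeR adjusted p = 0.239, and 0.0104 by DESeq2). Cdt1, the loader that geminin holds in check, had 13.7, 11.8, 11.9 and 12.7 CPM in infants 1 to 4, against 9.88, 10.4 and 5.64 CPM in adults 1 to 3. The low value of adult 3 bears on its log2 fold change of 0.54 (SE 0.23, edgeR adjusted p = 0.359), which was 0.30 at the lowest when single libraries were left out. Cdc6, the other loader, overlapped between groups, at 6.11 to 12.7 CPM in infants with infant 4 alone above 7, and 5.88 to 8.34 CPM in adults, and Orc1 had a log2 fold change of -0.10 (SE 0.60).

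Of the 6 subunits of the MCM2-7 helicase, 0 had a low p, although all 6 had a log2 fold change above 0. The values ran from 0.06 for Mcm5 to 0.39 for Mcm2, with unadjusted p from 0.0692 to 0.644 by edgeR, and adult 3 was the lowest library for all 6. Mcm3 had 129.8, 133.8, 127.4 and 134.1 CPM in infants 1 to 4, against 128.2, 128.3 and 105.7 CPM in adults 1 to 3. Mcm6 had 141.0, 171.1, 128.1 and 151.4 CPM in infants 1 to 4, against 141.6, 145.3 and 118.8 CPM in adults 1 to 3. Mcm5, whose upstream window is printed above, had 66.6, 64.6, 62.1 and 70.5 CPM in infants 1 to 4, against 61.2, 73.1 and 55.3 CPM in adults 1 to 3. The ages overlapped for all 3, for Mcm3 through the lowest infant and the 2 higher adults alone, and the log2 fold changes were 0.12 (SE 0.12), 0.13 (SE 0.14) and 0.06 (SE 0.13). That of Mcm5 was -0.027 without adult 3. The subunits sit in equal numbers in the helicase ring, yet their RPKM in infants ran from 13.2 ± 2.96 for Mcm7 and 13.9 ± 2.16 for Mcm2 to 33.1 ± 1.37 for Mcm3, and in adults from 10.8 ± 2.76 for Mcm2 and 10.9 ± 2.28 for Mcm7 to 31.0 ± 3.25 for Mcm3.

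**Figure D2:**
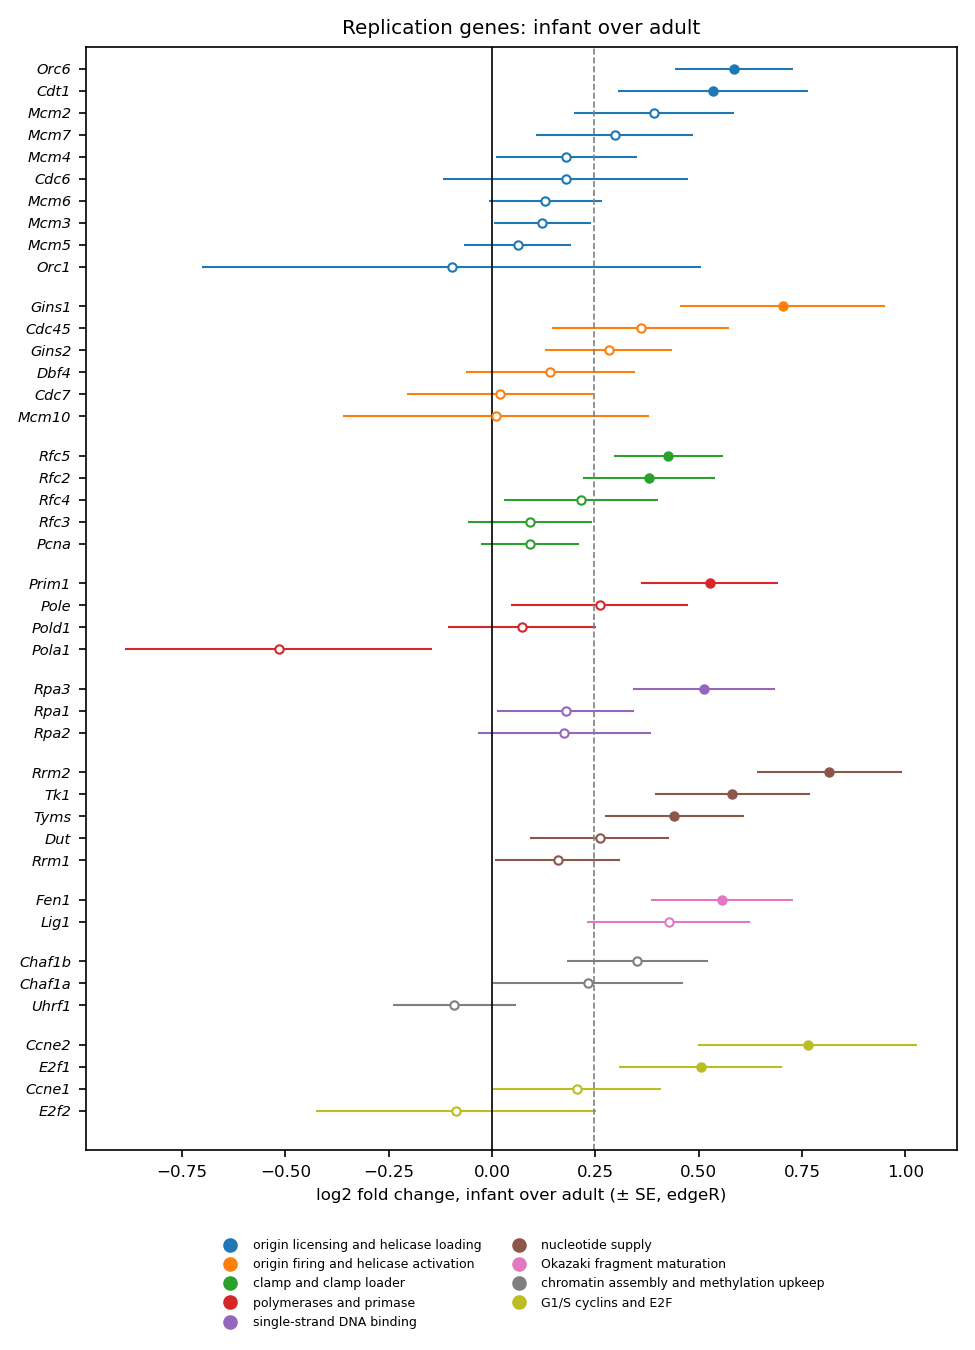
Log2 fold change (infant over adult) with its standard error from edgeR for all 42 genes, ordered within each role. Filled points have an unadjusted p under 0.05, the solid line is 0 and the dashed line the median of the 42, at 0.25. All 13 filled points lie to the right of 0, and Pola1, at -0.52, is the lowest of the 4 genes below it.

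Helicase activation held 1 member of low p. Gins1, part of the GINS complex that rides with the helicase, had 5.97, 8.31, 6.67 and 4.85 CPM in infants 1 to 4, against 4.22, 3.92 and 3.73 CPM in adults 1 to 3. Infant 4 was the closest to the adults, and the log2 fold change was 0.70 (SE 0.25, edgeR adjusted p = 0.317). Gins2 of the same complex was at 0.28 (SE 0.15), Cdc45 at 0.36 (SE 0.21), Dbf4 at 0.14 (SE 0.20) and its kinase partner Cdc7 at 0.02 (SE 0.22). Mcm10, which helps activate the helicase, was at 0.01 (SE 0.37).

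Among the clamp and the 4 loader subunits listed, 2 loader subunits had a low p and the clamp did not. Pcna, the sliding clamp and a common marker of S phase, had 90.0, 102.7, 90.5 and 83.6 CPM in infants 1 to 4, against 81.0, 91.2 and 86.1 CPM in adults 1 to 3. These values overlapped, with a log2 fold change of 0.09 (SE 0.12, edgeR adjusted p = 0.744). Rfc5 (chromosome 5, 117378103 to 117389047, minus strand), a small subunit of the loader, had 82.4, 106.8, 82.8 and 82.1 CPM in infants 1 to 4, against 65.0, 65.8 and 66.8 CPM in adults 1 to 3. The adults lay close together below the infants, and 3 of the infants were close together below infant 2. Rfc2, another small subunit, had 150.5, 239.6, 178.5 and 173.5 CPM in infants 1 to 4, against 147.1, 142.5 and 138.2 CPM in adults 1 to 3. Both were highest in infant 2, with log2 fold changes of 0.43 (SE 0.13, edgeR adjusted p = 0.295) for Rfc5 and 0.38 (SE 0.16, edgeR adjusted p = 0.358) for Rfc2. The unadjusted p of Rfc2 was over 0.05 in 5 of the 7 fits that left out 1 library, those without any adult and without infant 3 or infant 4. Rfc4 and Rfc3 were at 0.22 (SE 0.19) and 0.09 (SE 0.15). The difference between clamp and loader was not tested.

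The 4 polymerase and primase genes held 1 member of low p. Prim1 (chromosome 10, 128015168 to 128030037, plus strand), the catalytic subunit of primase, had 21.5, 25.1, 18.1 and 18.5 CPM in infants 1 to 4, against 14.7, 14.7 and 13.9 CPM in adults 1 to 3. The groups did not overlap, and the log2 fold change was 0.53 (SE 0.17, edgeR adjusted p = 0.298). Pola1, which works in one complex with primase, was at -0.52 (SE 0.37) from low levels of 1.14 to 3.36 CPM in infants and 2.87 to 3.97 CPM in adults. Pold1, the catalytic subunit of polymerase delta, had 133.5, 224.4, 171.6 and 166.3 CPM in infants 1 to 4, against 169.0, 185.6 and 141.5 CPM in adults 1 to 3. Its infants covered the whole adult range, and the log2 fold change of 0.07 (SE 0.18) was -0.076 without infant 2 and -0.030 without adult 3. Pole, of the leading strand polymerase epsilon, was at 0.26 (SE 0.21).

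Fragment maturation was represented by 2 genes. Fen1 (chromosome 19, 10199132 to 10204169, minus strand), the nuclease that trims Okazaki fragments, had 93.4, 141.3, 98.0 and 92.7 CPM in infants 1 to 4, against 78.5, 74.5 and 63.8 CPM in adults 1 to 3. It was highest in infant 2, and the groups did not overlap, with a log2 fold change of 0.56 (SE 0.17, edgeR adjusted p = 0.295). Only 10.7% of its exon reads were counted as unique. From those unique reads (197, 272, 199 and 182 in infants 1 to 4, against 169, 207 and 140 in adults 1 to 3) the log2 fold change was 0.49 with an unadjusted p of 0.0497 by edgeR. The groups overlapped in these read counts, which are not scaled to library size. The value of Fen1 is therefore uncertain. Lig1, the ligase that seals the fragments, was at 0.43 (SE 0.20, edgeR adjusted p = 0.384).

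The RPA trimer, which coats single-stranded DNA, held 1 member of low p. Rpa3 had 45.5, 66.0, 48.9 and 60.2 CPM in infants 1 to 4, against 36.3, 33.6 and 45.9 CPM in adults 1 to 3. Infant 1 lay just under adult 3, and the log2 fold change was 0.51 (SE 0.17, edgeR adjusted p = 0.310). Rpa1, the large subunit, had 90.4, 136.3, 86.0 and 95.04 CPM in infants 1 to 4, against 90.6, 87.6 and 92.0 CPM in adults 1 to 3. Infant 2 was the highest and infant 3 the lowest of all libraries for Rpa1, whose log2 fold change was 0.18 (SE 0.17), and Rpa2 was also at 0.18 (SE 0.21).

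Of the E2F and cyclin E genes, 1 of each pair had a low p. Ccne2 (chromosome 4, 11191351 to 11204779, plus strand), cyclin E2, had 5.40, 6.10, 4.96 and 5.80 CPM in infants 1 to 4, against 4.04, 3.52 and 2.26 CPM in adults 1 to 3. The groups did not overlap, and the log2 fold change was 0.76 (SE 0.27, edgeR adjusted p = 0.314). E2f1, an activator of S-phase genes, had 18.1, 20.6, 22.6 and 22.5 CPM in infants 1 to 4, against 14.9, 18.5 and 10.9 CPM in adults 1 to 3. Infant 1 lay just below adult 2, so E2f1 overlapped, with a log2 fold change of 0.51 (SE 0.20, edgeR adjusted p = 0.335). Ccne1 was at 0.21 (SE 0.20) and E2f2 at -0.09 (SE 0.34). Summed, the 4 genes stood at 34.9, 35.9, 36.3 and 39.1 CPM in infants 1 to 4, against 27.7, 30.7 and 23.1 CPM in adults 1 to 3, without overlap.

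Chromatin genes of S phase had no member of low p. Chaf1b, a subunit of the factor that places histones behind the fork, had 16.4, 24.1, 18.1 and 18.5 CPM in infants 1 to 4, against 15.3, 15.7 and 14.3 CPM in adults 1 to 3. These did not overlap, with infant 1 the closest to adult 2 (log2 fold change 0.35, SE 0.17, edgeR adjusted p = 0.395). Chaf1a, the largest subunit, was at 0.23 (SE 0.23). Uhrf1, which brings the maintenance DNA methyltransferase to newly copied DNA, had 75.0, 80.3, 75.9 and 101.9 CPM in infants 1 to 4, against 92.2, 97.4 and 76.5 CPM in adults 1 to 3. It was 1 of the 4 members with a log2 fold change below 0, at -0.09 (SE 0.15), and its groups overlapped throughout.

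**Figure D3:**
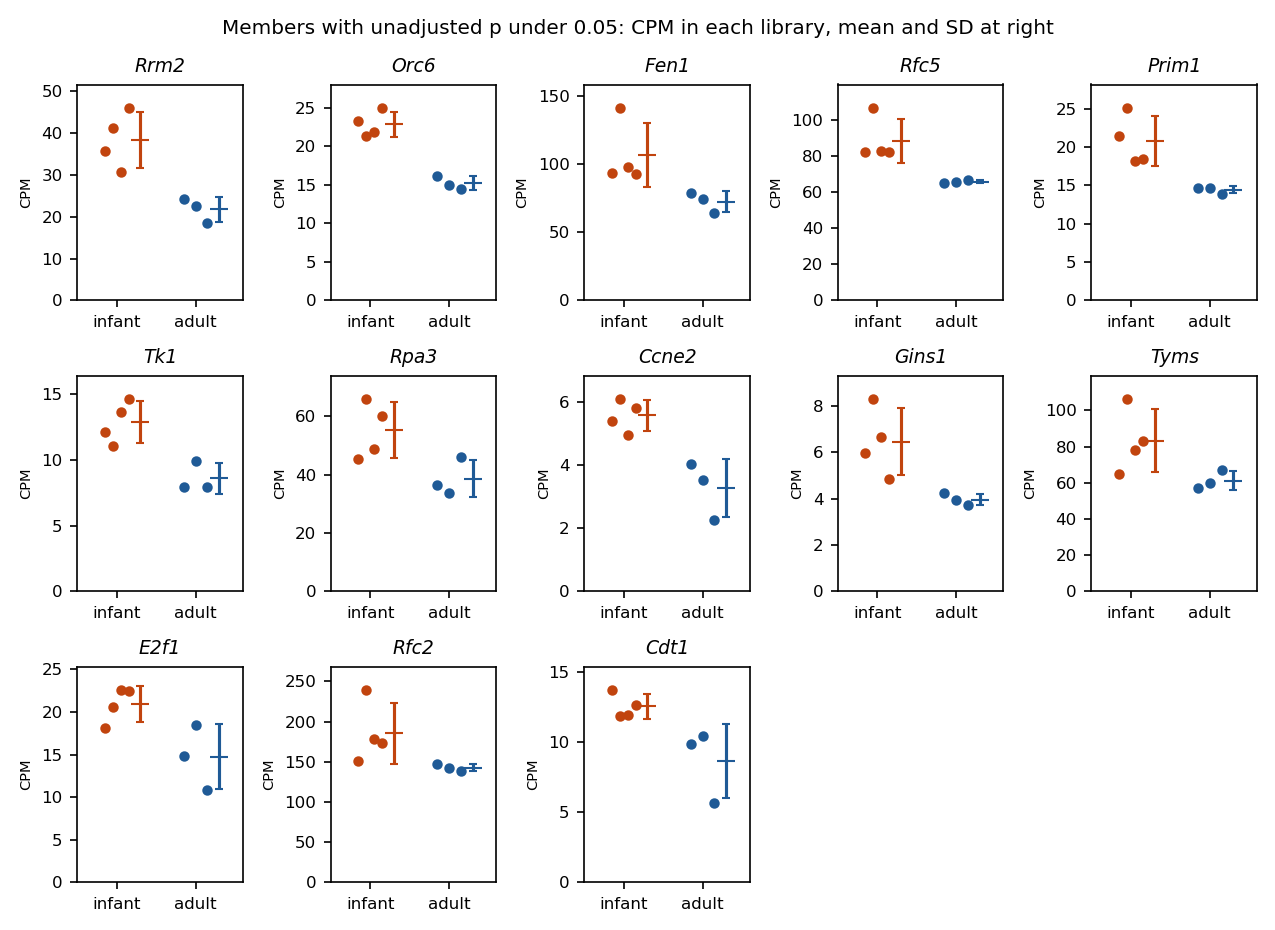
CPM in each library for the 13 genes with an unadjusted p under 0.05, in order of p, with infants left of adults and the group mean and SD to the right of the points. The groups do not overlap for 10 of the 13, and infant 1 lies below the highest adult for Rpa3, Tyms and E2f1. The genes were picked by p from these same libraries, which favours groups that do not overlap.

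Of the 13 genes, 6 kept an unadjusted p under 0.05 in each of the 7 fits that left out 1 library: Orc6, Rfc5, Prim1, Tk1, Rrm2 and Fen1. Ccne2 lost it without adult 3, Gins1 without adult 2 or adult 3, and Rpa3 without adult 1 or adult 2. E2f1 lost it without adult 1, adult 3, infant 3 or infant 4, and Cdt1 without adult 3, infant 1, infant 3 or infant 4. The 13 were picked by p from these same libraries, which favours keeping a low p. The share that kept it among all genes of low p is not given. Grouped by role, the summed levels of all infants lay above all adults for clamp and loader, nucleotide supply, fragment maturation, and cyclins with E2F. They overlapped for licensing (510 to 606 CPM in infants and 423 to 559 CPM in adults), helicase activation, polymerases, RPA and chromatin (106 to 136 and 99.2 to 130.3 CPM).

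**Figure D4:**
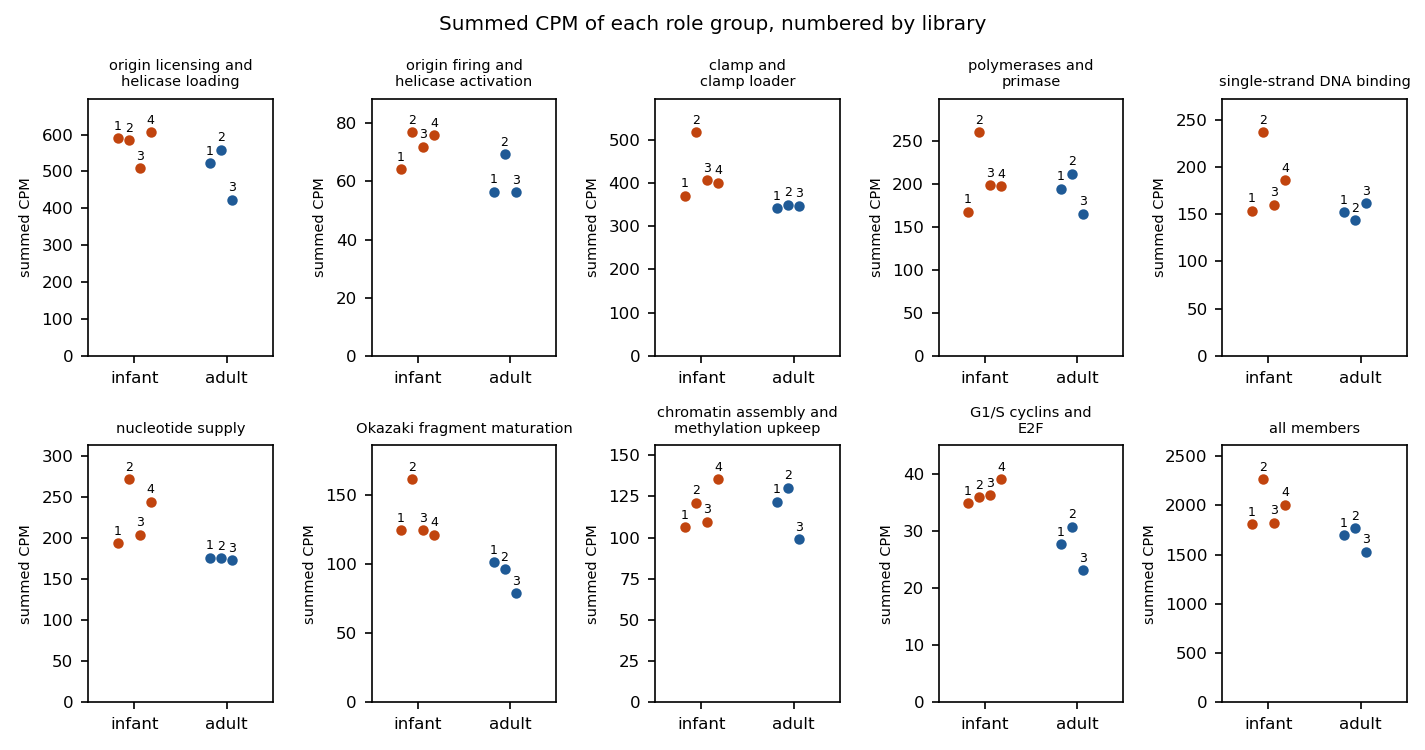
Summed CPM of the genes of each role in each library, numbered 1 to 4 for infants (left) and 1 to 3 for adults (right), on axes from 0. Infants and adults do not overlap for 4 of the roles and for all 42 genes together, the last only with the TMM factors. Infant 2 is the highest library for clamp and loader at 517 CPM.

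How the reads were placed differed among the genes. For 32 of the 42 at least 99% of exon reads were counted as unique, and 10 were under 95%. What made a read unique is not stated in these sources. For Ccne2 the unique reads equalled the junction reads, at 235 in infants and 97 in adults. The lowest were Fen1 at 10.7%, Tk1 at 44.3%, Gins2 at 51.7%, Ccne2 at 51.9%, Cdt1 at 69.2% and Orc1 at 77.0%. With unique reads alone, 12 of the 13 genes of low p remained so, and Cdt1 had an unadjusted p of 0.0602 by edgeR. In that fit the log2 fold change of Tk1 was 0.80 and that of Ccne2 1.04. Exon bases were shared with another annotated gene for 15 of the 42, among them 6 of low p, all on opposite strands. These were Fen1 (1909 bases with Gm10143 and 130 with Tmem258), Tk1 (83 with Afmid) and Orc6 (171 with Vps35). The others were Rfc5 (499 with Wsb2), Rfc2 (952 with Lat2) and Ccne2 (609 with Ints8). The use of strand in counting is not stated in these sources, and reads of such pairs may be mixed. Intron reads per 100 exon reads had a median of 3.15 in infants and 3.82 in adults over the 42 genes, and were fewer in infants for 27. Over all genes, intron reads were 4.45 to 5.37% of gene reads in infants and 4.93 to 6.36% in adults. Chosen after its values were seen, Pcna had 5.23 intron reads per 100 exon reads in infants and 14.9 in adults, pooled over libraries. The value was higher in infants for 15 members, among them Cdc7 at 18.2 in infants and 9.45 in adults.

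A list of 65 further replication genes was treated in the same way, and 64 of them could be tested. By edgeR 0 passed, 8 had an unadjusted p under 0.05 and were higher in infants, and 0 lower, while DESeq2 called 1, Pclaf. Of all tested genes 6.53% were higher and 6.73% lower at that unadjusted level, and DESeq2 called 1.57%. The median log2 fold change of the list was 0.10, with 42 of the 64 above 0, where 50.2% of all tested genes were. Every infant library lay above every adult library for 10 of the 64, which held for 7.97% of all tested genes. The reverse held for 2 of the 64 and for 7.58% of all tested genes. Ung, the one not tested, was at 0.160 to 0.210 CPM in infants and 0.0981 to 0.586 CPM in adults. Pclaf, a PCNA-binding factor listed in the tables as 2810417H13Rik, had 22.1, 27.4, 28.1 and 33.7 CPM in infants 1 to 4, against 16.2, 16.1 and 12.6 CPM in adults 1 to 3 (log2 fold change 0.89, SE 0.18, edgeR adjusted p = 0.197). Asf1b, a histone chaperone, was at 0.69 (SE 0.24) and Tipin, of the fork protection complex, at 0.38 (SE 0.15).

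A list of 20 mitosis genes had a median log2 fold change of 0.54, with 12 genes higher in infants at an unadjusted p under 0.05 and 0 lower, 0 called by edgeR and 7 by DESeq2, and the difference between the lists was not tested. Of all tested genes 6.53% were higher at that unadjusted level, and DESeq2 called 0.596% as higher, as were all 7 here. Of the 20, 18 had a log2 fold change above 0 and 2 below, which were Mki67, a common marker of dividing cells, at -0.16 (SE 0.25) and Bub1b at -0.025 (SE 0.25), chosen after their values were seen. Over all tested genes 50.2% had a log2 fold change above 0. Cdk1, the mitotic kinase with the smallest p of the list, had 16.1, 16.1, 16.2 and 17.7 CPM in infants 1 to 4, against 9.61, 7.85 and 7.99 CPM in adults 1 to 3 (log2 fold change 0.96, SE 0.16, edgeR adjusted p = 0.152).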

How the data were processed

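RNA-seq tables of 7 libraries, 4 infant and 3 adult, were grouped by the age in the labels. Per the file headers, the authors deposited read counts per gene (total and unique exon reads, junction and intron reads) and RPKM, in which the total exon reads are divided by exon length and library size. Per the submitters' processing notes, the build was mm10 and the tools were Cuffdiff and Cuffnorm (both 2.2.1), Cufflinks (2.2.1.0), TopHat and TopHat2 (2.0.14 and 2.1.0), with no role given. The sources used here do not give the counting program or its annotation.

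Total exon counts were tested with edgeR 4.0.16 (filterByExpr by age, TMM, robust glmQLFit, glmQLFTest) in R 4.3.3 over 12261 genes, with Benjamini-Hochberg adjustment at 0.05. Standard errors are the log2 fold change over the square root of F. The script was tested on simulated data. A count of 3 reads is 0.134 to 0.166 CPM, which covers counting error only. Within groups, pairs of libraries gave a chi-square of 16.9 to 140 relative to its degrees of freedom, and each library counted as 1 replicate. Alternatives were DESeq2 1.42.0, limma 3.58.1 (voom, or log2(RPKM + 1) and log2(RPKM + 0.1) for genes at 1 RPKM or more in 3 libraries), RLE or no scaling, no filter or 5 CPM in 3 libraries, unique reads, no robust estimation, a threshold of 0.1, the replicate number as a block, and leaving out each library.

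The members and lists were chosen with earlier results of these data known. Values in every library are given for members with an unadjusted p under 0.05, the 10 highest by RPKM, the smallest p in each role and any called under an alternative, 21 in all. Coordinates overlapped GENCODE M21 for all 42 genes. Some genes of the lists are not reported here.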

Additional observations from a re-analysis of the deposited data

Results flagged for a closer look

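Of 52 levels checked among the infants (42 genes, 9 role sums and their total), 4 had 1 library far from the other 3, and chance flags about 1 in 20. Cdc6 was at 12.7 CPM in infant 4 against 6.11 to 6.99 CPM in the other infants. Rfc5 was at 106.8 CPM in infant 2 against 82.1 to 82.8 CPM, and Fen1 at 141.3 CPM in infant 2 against 92.7 to 98.0 CPM. The summed level of Fen1 and Lig1 was 161.7 CPM in infant 2 against 121.3 to 124.7 CPM. Infant 2 also stood apart over all genes, and its part in these values was not tested.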

How the results depend on the processing

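No member passed by edgeR under any setting tried, and DESeq2 called 2. The number of genes called over the whole table was 2, and was 193 with DESeq2, 8 without a filter, 1 with log2(RPKM + 1) or log2(RPKM + 0.1), 6 at a threshold of 0.1, 1 with the replicate block, and 2 to 10 when single libraries were left out. Of the further replication genes DESeq2 called 1 and the other settings 0. Members higher in infants at an unadjusted p under 0.05 numbered 13, and 8 to 16 with single libraries left out (8 without adult 3). The median log2 fold change of the members ran from 0.20 to 0.32 and the log2 ratio of their summed level from 0.18 to 0.29 in those fits. With the replicate block 8 members had an unadjusted p under 0.05. Of all tested genes 6.53% were higher at that level in the main fit, and no such share is given for the other fits. Same-numbered libraries correlated in their deviations at 0.03, -0.03 and 0.10, and libraries of unlike number at -0.185 to 0.150. Infants 1 and 3 correlated best with the adult of their number, and infant 2 with adult 3. Values this small cannot show whether the numbers pair the libraries. Leaving out infant 2 and adult 3 (whose table carries a sample name unlike its title) together, chosen after seeing the data, gave 9 such members and 8 genes called over the table, and log2 fold changes of -0.016 for Mcm5, -0.034 for Mcm6 and -0.18 for Pold1. Mcm5 was at -0.027 without adult 3, and Pold1 at -0.030 without adult 3 and -0.076 without infant 2. The causes were not tested. Of 420 values of the 21 named members, 6 changed sign, none of a gene with a low p, and 2 passed the threshold. Depth limits Orc1 most, with 4 to 33 reads per infant library.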
